A study of Bos taurus with 12 samples.

Results

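PLCG1, MAPK9, PIK3R3, RASAL2 and RSPO3 are 5 signalling genes of the bovine corpus luteum, each represented by 1 probe among the 15208 probes of the array. They were selected on measured values, namely their lower signal at day 18 of gestation, so their day 18 differences are given as descriptions and only day 15 of pregnancy against day 15 of the cycle was tested. The probes of PLCG1, PIK3R3 and RSPO3 carry those names in the files, that of MAPK9 carries the locus name LOC534125, and that of RASAL2 is tied to its gene by the description of an expressed sequence tag. The collective name "kinase and Ras signalling" covers them loosely, since among the 5 only MAPK9 encodes a protein kinase.

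Receptor tyrosine kinases pass signals inward along several branches, and some of these genes belong to them. PLCG1 encodes phospholipase C gamma 1, which cleaves a membrane phosphoinositide into inositol trisphosphate, a trigger of calcium release, and diacylglycerol, an activator of protein kinase C. PIK3R3 encodes a regulatory subunit of phosphoinositide 3-kinase, the enzyme upstream of AKT. RASAL2 encodes a GTPase activator that returns Ras to its inactive form, MAPK9 encodes the stress kinase JNK2, and RSPO3 encodes a secreted R-spondin that strengthens Wnt signalling through LGR receptors. The corpus luteum is the transient ovarian gland that makes progesterone, and in cattle it is kept when an embryo signals around the third week after insemination. Calcium, protein kinase C and JNK signalling are known there mainly from work on prostaglandin F2 alpha, the hormone that ends luteal life.

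The probes are 60 bases long, and the first 30 bases of each, 5′ to 3′, are shown so that the measured transcript can be identified, together with those of a second probe that the array describes as similar to RASAL2.
PLCG1, probe ABR461: acattcctgagaggggcggaacagcagtag
MAPK9, probe A_73_112342: tagagtagaattttacgaagtgatcactaa
PIK3R3, probe ABR1347: acttgctctatgggaaacctgacggtgcat
RASAL2, probe A_73_120247: tgttcatttccttctgtctgtagcagatgg
RSPO3, probe ABR9185: aattgtccacatgaaactaaaagggatact
RASAL2-like, probe ABR3658: tggaagaggaactgaagaaggatcatgctg
None of these 6 probes shared a run of 20 bases, on either strand, with any other probe of the array. Their GC content was 55% for PLCG1, 45% for PIK3R3, 40% for MAPK9 and for RASAL2, 35% for RSPO3 and 43.3% for the second RASAL2 probe. The 5 member probes sat in rows 20, 58, 149, 47 and 56 of 192 in the order printed, with those of MAPK9 (column 8) and RSPO3 (column 13) near each other.

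The series holds 12 corpora lutea of Japanese Black cows, 4 animals in each of 3 groups, with 1 array per animal. NP15 cows were not pregnant and were at day 15 of the estrous cycle. P15 and P18 cows were pregnant, at day 15 and day 18 of gestation counted from insemination as day 1. The RNA came from the whole gland, so fewer cells of a type and less RNA per cell cannot be told apart. Labelled cRNA was hybridised in 1 colour (Cy3). A level here is the log2 of the processed signal relative to the 75th percentile of its array, so 0 is a bright probe and −6 is a dim probe.

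All 12 markers of steroid-producing luteal cells, among them STAR, CYP11A1 and HSD3B1, were well above background on all 12 arrays. The NP15 and P15 arrays shared slide 1 and its scan, in different rows of that slide, and the P18 arrays were alone on slide 2, so slide and group cannot be told apart for day 18. Negative control spots gave a net signal, which is the signal before background subtraction, of 34.7 to 38.5 on NP15 arrays, 32.1 to 36.4 on P15 arrays and 78.8 to 92.2 on P18 arrays. Probes well above background made up 79.6% to 85.6% of an NP15 array, 75.3% to 80.5% of a P15 array and 67.5% to 72.6% of a P18 array. The lowest level well above background averaged −7.79 ± 0.32 in NP15, −7.15 ± 0.38 in P15 and −5.83 ± 0.33 in P18 (SD, n = 4 arrays each). A transcript dim enough to lie between these limits was therefore measurable at day 15 and not at day 18. On single P18 arrays the limit ran from −6.08 to −5.36. The day 15 levels of MAPK9, −5.26 to −4.73, lay above that range. Those of PIK3R3, RASAL2 and RSPO3 reached into or below it on some arrays.

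In the corpus luteum at day 15 none of the 5 genes differed detectably between pregnant and cyclic cows. At day 18 the processed signal of PLCG1 was 4.85-fold lower than in NP15 and was still measured on every array, near the lowest measurable level. The other 4 genes were well above background on all 8 day 15 arrays and on no P18 array, a pattern that 3.42% of the 12605 tested probes had. Fitted day 18 differences from NP15 ran from −2.39 to −1.81 on the log2 scale with a median of −2.28, against a median of −0.058 over all tested probes. Against P15 they ran from −2.42 to −2.17 with a median of −2.26, against −0.027 over all probes.

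**Figure D1:**
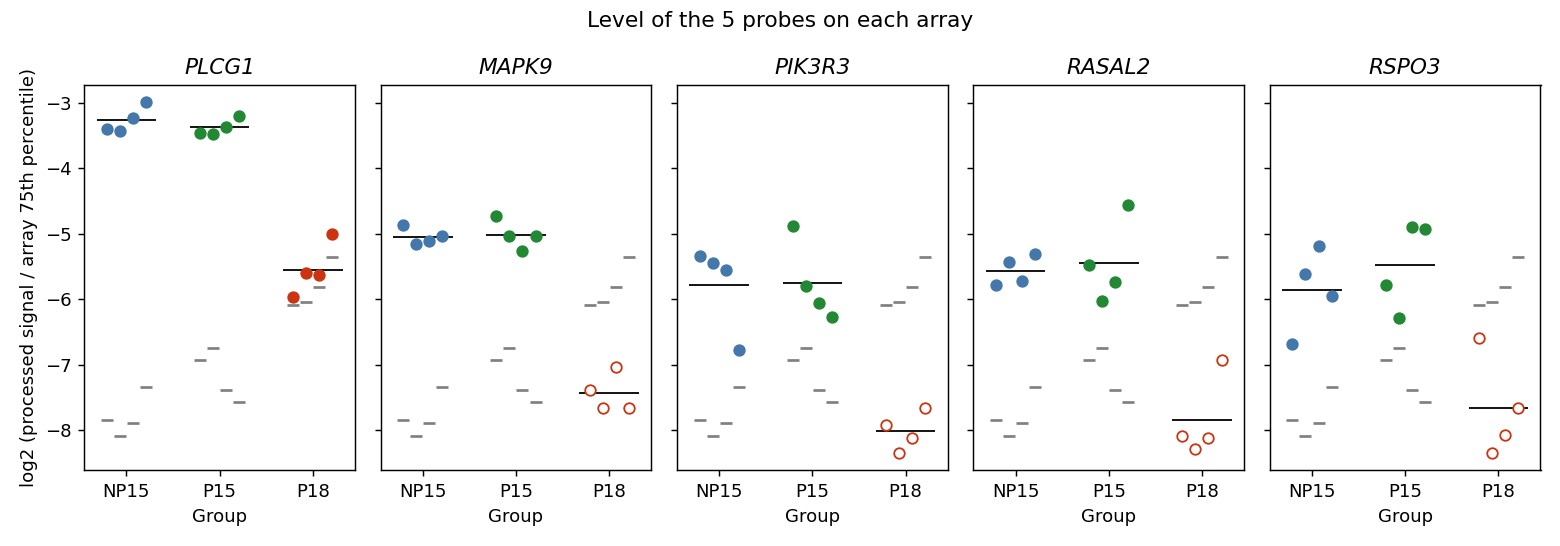
The vertical axis is the log2 of processed signal over the array's 75th percentile, with 1 panel per gene and 1 point per array in NP15, P15 and P18. Filled points were well above background and open points were not, black lines are group means, and grey ticks mark the lowest level well above background on each array. The P18 points of PLCG1 are filled and sit between −5.96 and −5.00, and the P18 points of the other 4 genes are open and lie under the P18 ticks.

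PLCG1, the phospholipase, had levels of −3.40, −3.43, −3.24 and −2.99 on the 4 NP15 arrays. Its levels on the P15 arrays were −3.47, −3.48, −3.36 and −3.20. On the P18 arrays they were −5.96, −5.60, −5.63 and −5.00. The lowest levels well above background on those arrays were −6.08, −6.04, −5.82 and −5.36, so PLCG1 lay close above them. Every P18 array lay below every day 15 array, while the NP15 and P15 arrays overlapped, so the order was P18 lowest and NP15 and P15 not separable. Group means were −3.27 ± 0.20 in NP15, −3.38 ± 0.13 in P15 and −5.54 ± 0.40 in P18 (SD, n = 4). The log2 change of P18 was −2.28 against NP15 and −2.17 against P15, which is 4.85-fold and 4.50-fold lower. In net signal, with no background taken off, PLCG1 measured 367 to 428 on the NP15 arrays, 285 to 405 on the P15 arrays and 149 to 196 on the P18 arrays. These ranges did not overlap either, and the P18 mean was lower by a change of −59.0% against NP15 and −55.8% against P15. Relative to its array's negative controls, the PLCG1 spot was 10.6 to 11.3 times as bright in NP15, and the ratio was 8.44 to 12.4 for P15 and 1.70 to 2.12 for P18.

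MAPK9, the JNK2 kinase, measured −4.86, −5.16, −5.12 and −5.03 on the NP15 arrays. The P15 arrays gave −4.73, −5.03, −5.26 and −5.03. The P18 arrays gave −7.39, −7.66, −7.04 and −7.65, none of them well above background. All P18 values lay under all day 15 values, with NP15 and P15 overlapping. Since the P18 spots were below the measurable range, the fold is a bound, set by the array's lowest level well above background. This bound, like those of the next 3 genes, holds for processed signal only, and other handling of background gave smaller differences. On processed signal MAPK9 was at least 1.72-fold lower in P18 than in NP15 and at least 1.76-fold lower than in P15. The measured group means were −5.04 ± 0.13 in NP15, −5.01 ± 0.21 in P15 and −7.43 ± 0.29 in P18 (SD, n = 4). Net signals of 132 to 159 in NP15 and 141 to 162 in P15 stood above the 105 to 113 of P18 without overlap. The mean net signal of P18 differed by −24.7% from NP15 and by −25.2% from P15, while the negative controls went the other way. MAPK9 is thus, besides PLCG1, the member whose raw brightness separated day 18 from day 15.

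PIK3R3, the phosphoinositide 3-kinase subunit, had NP15 levels of −5.34, −5.45, −5.54 and −6.77. Its P15 levels were −4.88, −5.80, −6.05 and −6.27. Its P18 levels were −7.91, −8.34, −8.12 and −7.65, all below the day 15 arrays and none well above background. On 3 of the 4 P18 arrays the software had replaced the signal of this spot by a surrogate, a value set for the array from its background error when a spot is too dim, so the spread among those P18 values is not that of the transcript. The means were −5.78 ± 0.67 in NP15, −5.75 ± 0.61 in P15 and −8.01 ± 0.29 in P18 (SD, n = 4). On processed signal the bound was at least 1.03-fold lower than NP15 and at least 1.05-fold lower than P15. Net signals ran from 68.7 to 141 for NP15, from 77.5 to 126 for P15 and from 86.1 to 106 for P18. Those ranges overlapped, with P18 means differing by −12.3% from NP15 and −4.80% from P15. The dimmest NP15 array had a lower net signal than every P18 array.

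RASAL2, the Ras GTPase activator, had NP15 levels of −5.78, −5.44, −5.72 and −5.30. The P15 levels were −5.48, −6.03, −5.73 and −4.55. The P18 levels were −8.08, −8.28, −8.12 and −6.92, of which 1 was a surrogate and none was well above background. All P18 values were under all day 15 values, and P18 replicate 4 stood apart from the other P18 arrays. Means were −5.56 ± 0.23 in NP15, −5.45 ± 0.64 in P15 and −7.85 ± 0.62 in P18 (SD, n = 4), and the bound on processed signal was at least 1.20-fold lower than NP15 and 1.30-fold lower than P15. In net signal RASAL2 measured 101 to 139 at NP15, 104 to 176 at P15 and 100.4 to 130 at P18, so the groups overlapped. The P18 mean net signal differed by −3.07% from NP15 and by −12.0% from P15.

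RSPO3, the R-spondin ligand, was the most scattered of the 5 in P15 and in P18. It measured −6.68, −5.61, −5.19 and −5.94 on the NP15 arrays. It measured −5.79, −6.29, −4.89 and −4.93 on the P15 arrays and −6.59, −8.34, −8.07 and −7.65 on the P18 arrays, of which 2 were surrogates and none was well above background. P18 replicate 1 lay above the lowest NP15 array, so only 3 of the 4 P18 arrays were under all NP15 arrays, whereas all 4 were under all P15 arrays. Means were −5.85 ± 0.63 in NP15, −5.47 ± 0.68 in P15 and −7.66 ± 0.77 in P18 (SD, n = 4). No fold against NP15 can be given, since the NP15 mean was no higher than the limit of measurement of the P18 arrays, and against P15 the gene was at least 1.28-fold lower on processed signal. Net signals of 73.1 to 129 (NP15), 89.5 to 169 (P15) and 92.3 to 126 (P18) overlapped, with P18 means differing by −1.88% from NP15 and −18.2% from P15.

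By processed signal, P18 lay wholly below NP15 for 4 of the 5 genes, RSPO3 being the exception, where 18.6% of all tested probes did so. P18 lay wholly below P15 for all 5, where 18.4% of tested probes did so. By net signal these counts were 2 and 2, PLCG1 and MAPK9 each time. Net signal still holds background, and the negative controls were brighter on P18 arrays. As a ratio to those controls, P18 lay below both day 15 groups for every member. MAPK9 had 1.20 to 1.35 in P18 (NP15 3.51 to 4.57, P15 3.95 to 4.45). PIK3R3 had 1.04 to 1.24 (1.82 to 3.65, 2.42 to 3.74). RASAL2 had 1.21 to 1.41 (2.89 to 3.61, 3.03 to 5.48) and RSPO3 1.01 to 1.53 (2.10 to 3.72, 2.63 to 4.72). This ratio also falls when the controls brighten. The amount taken off as background for these spots was 36.9 to 44.9 on NP15 arrays, 35.1 to 52.8 on P15 arrays and 83.8 to 109 on P18 arrays. Surrogates stood in 7 of the 20 P18 spots and in 0 of the 40 day 15 spots.

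**Figure D2:**
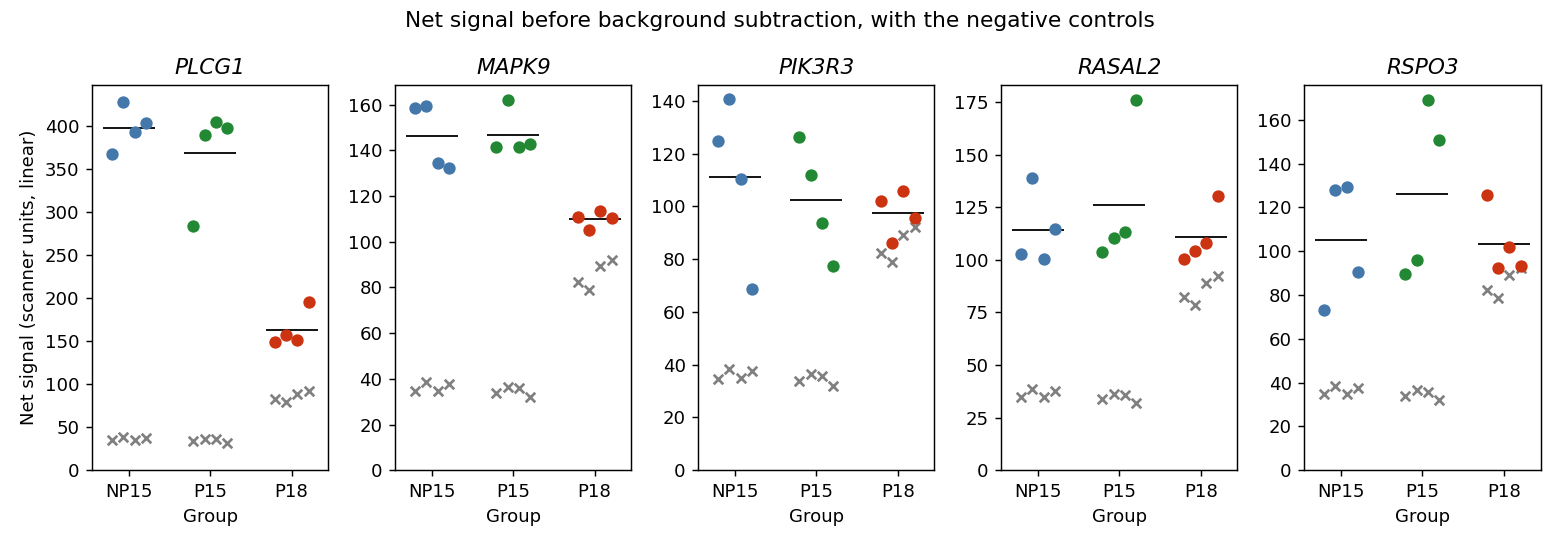
The vertical axis is net signal in linear scanner units, starting at 0, with 1 panel per gene and 1 point per array; grey crosses are the mean net signal of that array's negative controls and black lines are group means. PLCG1 (149 to 196 in P18) and MAPK9 (105 to 113 in P18) lie below their day 15 points, PIK3R3, RASAL2 and RSPO3 overlap them, and the crosses are higher in P18 than at day 15.

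How far the 5 genes differed at day 18 therefore moved with the handling of background. Under normexp, a background model with an offset and no surrogates, the log2 changes of P18 against NP15 were −1.36 for PLCG1, −0.68 for MAPK9, −0.38 for PIK3R3, −0.35 for RASAL2 and −0.37 for RSPO3. With scaled net signal and no subtraction they were −1.26 for PLCG1, −0.38 for MAPK9, −0.12 for PIK3R3, −0.011 for RASAL2 and 0.031 for RSPO3, so RSPO3 changed sign. With all arrays raised to the highest of their limits, which removes any difference below what every array could measure, PLCG1 had −2.0, MAPK9 had −0.32 and the other 3 genes lay between −0.042 and −0.0051. PLCG1 had a difference of more than 1 log2 unit under each of these 4 settings, processed signal included. The common floor, at −5.36, could not show so large a difference for the other genes, whose NP15 means ran from −5.85 to −5.04. Net signal left little room for one. NP15 mean net signals of these genes were 105 to 146, and P18 negative controls alone gave 78.8 to 92.2. Of the other settings here, processed signal gave them a difference of more than 1 log2 unit and normexp did not. Quantile normalization, cyclic loess and median centring, all made from processed signal, also gave them more than 1 log2 unit.

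**Figure D3:**
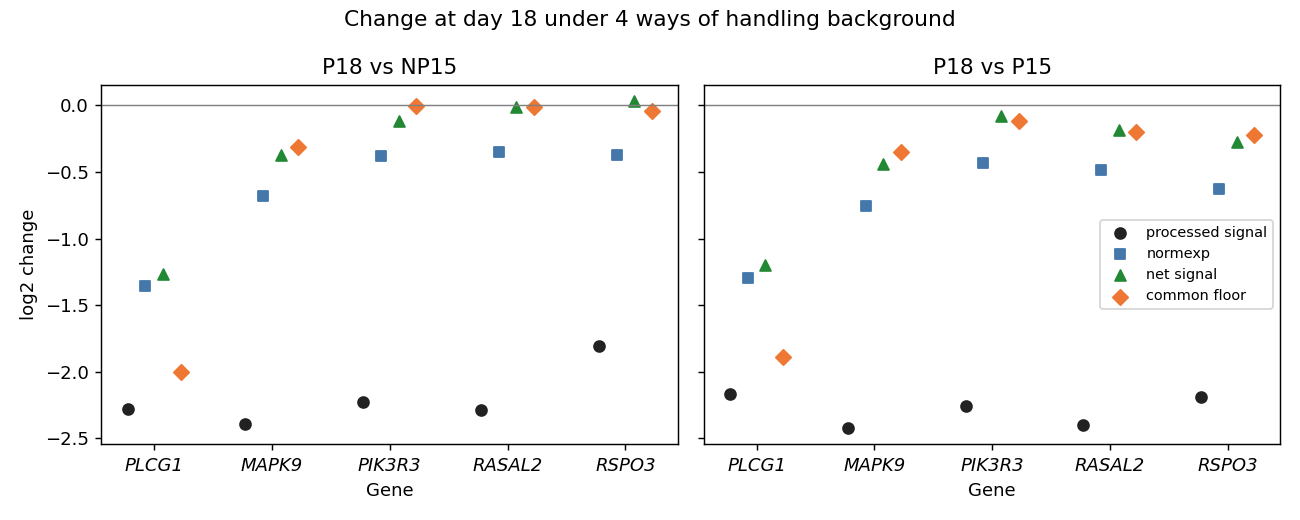
The vertical axis is the log2 change of P18 minus NP15 (left) and P18 minus P15 (right) for each gene, from processed signal (circles), normexp (squares), net signal (triangles) and a common floor (diamonds). Circles lie between −2.42 and −1.81; all markers of PLCG1 lie at −1.20 or lower, and for PIK3R3, RASAL2 and RSPO3 the triangles and diamonds lie between −0.27 and 0.031.

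The comparison of P15 with NP15 was not used to choose the genes, and both groups were on slide 1 with similar negative controls, although in different slide rows. None of the 5 genes passed limma at a Benjamini-Hochberg adjusted p of 0.05 over 12605 probes, where 0.976% of probes did. Of all probes 0.397% were higher and 0.579% lower in P15 (50 and 73 probes, or 45 and 31 with normexp and 52 and 50 with net signal). An unadjusted limma p under 0.05 was found for 0 of the 5 and for 1112 of the 12605 probes. For PLCG1 the change was −0.11 (SE 0.19, 95% interval −0.52 to 0.30, limma adjusted p = 0.897). MAPK9 changed by 0.031 (SE 0.16, interval −0.32 to 0.38, limma adjusted p = 0.973). PIK3R3 changed by 0.026 (SE 0.36, interval −0.76 to 0.81, limma adjusted p = 0.989) and RASAL2 by 0.11 (SE 0.35, interval −0.65 to 0.87, limma adjusted p = 0.950). RSPO3 had the widest interval, −0.60 to 1.37 around 0.38 (SE 0.45, limma adjusted p = 0.855). The intervals leave room for changes as large as −0.52 in PLCG1, 0.38 in MAPK9 and 1.37 in RSPO3. The signs for MAPK9, PIK3R3 and RASAL2 depended on which arrays were included.

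The array also carried a probe described as similar to RASAL2 isoform 2, with no symbol of its own, which was chosen for mention after its values were seen. It was well above background on all 12 arrays. Its levels were −2.38, −2.93, −2.58 and −2.78 in NP15, −2.23, −2.74, −2.44 and −2.10 in P15, and −2.33, −2.69, −2.37 and −2.82 in P18. The 3 groups overlapped, with a P18 change of 0.11 against NP15 and −0.18 against P15, and so this probe did not share the lower day 18 value of the RASAL2 probe printed above it. The 2 probes have no 20-base run in common, and which transcripts each detects was not tested.

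**Figure D4:**
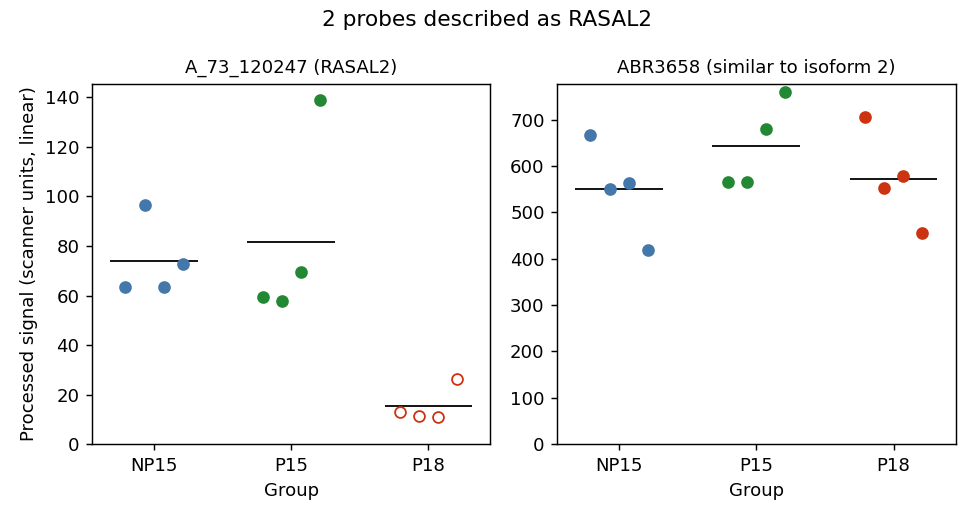
The vertical axes are processed signal in linear scanner units, starting at 0 and on different scales, for the RASAL2 probe (left) and the probe described as similar to RASAL2 isoform 2 (right), with 1 point per array, black group means and open points for spots not well above background. Left, the 4 P18 points are open and under all day 15 points; right, P18 (455 to 705) overlaps NP15 (418 to 667) and P15 (565 to 760).

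Close relatives of the 5 genes were few among the named probes. PIK3R1, the regulatory subunit that resembles PIK3R3, had 2 probes that disagreed. The brighter changed by 0.057 in P18 against NP15 (limma adjusted p = 0.839), and the dimmer fell by 1.01 (limma adjusted p = 0.00115). PIK3R2 fell by 0.52 (limma adjusted p = 0.0473), with an adjusted p of 0.689 under normexp and a change of 0.17 in net signal, where its sign turned. DAB2IP, a Ras GTPase activator of the RASAL2 family, had −0.26 (limma adjusted p = 0.134), and LGR4, a receptor for R-spondins, had −0.034 (limma adjusted p = 0.934). LGR4 was well above background on all arrays, with levels of 0.72 to 2.09 (NP15), 1.66 to 1.99 (P15) and 1.26 to 1.62 (P18).

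Around the 5 genes, 5 lists of their pathways held 321 other genes, of which 121 were tested, each by its brightest probe (the lists, like the 5 genes, were chosen with results of these data known). Between P15 and NP15, 0 of 121 passed limma at an adjusted p of 0.05, where 0.976% of all tested probes did. An unadjusted limma p under 0.05 was found for 4 of the 121 and for 1112 of all 12605 tested probes. In P18 against NP15, 32 were lower and 11 higher, that is 26.4% and 9.09%, where 29.9% of all tested probes changed, 18.7% lower and 11.2% higher. In P18 against P15, 25 were lower and 9 higher, or 20.7% and 7.44%, where 29.0% of tested probes changed, 15.6% lower and 13.5% higher. The 2 day 18 comparisons share the P18 arrays. The median change of the 121 genes was −0.13 against NP15 and −0.19 against P15. Leaving out P18 replicate 1 reduced the genes changed against NP15 from 43 to 27, and the common floor reduced them to 28. Centring arrays on their medians moved the median of all probes by over 0.1, to 0.18 against NP15 and 0.20 against P15, and turned the list counts to 21 higher and 16 lower against NP15 and 21 higher and 12 lower against P15. Net signal moved it to 0.14 and 0.15 and gave 22 higher and 18 lower against NP15 and 22 and 16 against P15. Under normexp the counts were 13 higher and 20 lower against NP15, and 11 and 15 against P15. Lower list genes thus outnumbered higher ones with the 75th percentile, quantile, cyclic loess, normexp and common floor settings, and not with median centring or net signal. Over all tested probes, 1410 were higher and 2363 lower against NP15, which became 2924 and 1361 with median centring, 3224 and 1385 with net signal and 2014 and 1540 with normexp. Against P15, 1698 were higher and 1961 lower, which became 3227 and 1179, 3480 and 1116, and 2039 and 1273 in the same order. The named genes that follow kept their direction under each scaling, apart from FZD4.

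Of the phospholipase C, calcium and protein kinase C genes, 6 of 27 tested fell in P18 against NP15 and 0 rose. For this and the lists that follow, 18.7% of all tested probes fell and 11.2% rose against NP15, and 15.6% and 13.5% against P15. In this list, and in the JNK, phosphoinositide 3-kinase and Ras lists below, 1 gene that fell against NP15 was well above background on no P18 array. GNA11, a G protein subunit that activates phospholipase C beta, fell 1.87-fold (limma adjusted p = 0.000325), and ITPR3, a receptor for inositol trisphosphate on the calcium store, fell 1.77-fold (limma adjusted p = 0.00254). CAMK2D, a calcium-dependent kinase, fell 1.58-fold (limma adjusted p = 0.00248). Against P15, 4 fell and 1 rose, with ITPR3 2.53-fold lower (limma adjusted p = 0.000173). PPP3R1, a subunit of the phosphatase calcineurin, fell 1.49-fold (limma adjusted p = 0.00773), and its change was −0.19 under normexp (adjusted p = 0.230) and −0.031 in net signal (adjusted p = 0.866). GNA11, ITPR3 and CAMK2D were well above background on all 12 arrays.

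In the JNK, p38 and ERK cascades, 4 of 29 tested genes rose and 2 fell in P18 against NP15, and 3 rose and 3 fell against P15. MAPK15, an atypical ERK, rose 1.48-fold against NP15 (limma adjusted p = 0.0151) and 1.72-fold against P15 (limma adjusted p = 0.00297). MAP2K6, which activates p38, fell 2.0-fold against P15 (limma adjusted p = 0.00333). JUN, the transcription factor that JNK phosphorylates, fell 2.17-fold against P15 (limma adjusted p = 0.0153), with P18 levels from −1.01 to 0.30. MAPK14, the p38 alpha kinase, and ELK1, a target of ERK, rose 1.24-fold and 1.38-fold against NP15 (limma adjusted p = 0.0301 and 0.0302). Each lost its call when any of several arrays was left out. MAPK14, counted by the brighter of its 2 tested probes, also lost it under quantile normalization, with the 2 groups alone and with the position adjustment. Over all settings the limma adjusted p reached 0.232 for MAPK14 and 0.0851 for ELK1.

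Of the phosphoinositide 3-kinase, AKT and mTOR genes, 8 of 18 fell and 2 rose against NP15, and 7 fell and 2 rose against P15. PIK3CA, a catalytic subunit that partners the regulatory subunits, fell 1.58-fold against NP15 (limma adjusted p = 0.0120, or 0.0843 at its highest under another setting), and AKT1 fell 1.67-fold (limma adjusted p = 0.00402). MLST8, a subunit of the mTOR complexes, rose 1.83-fold against P15 (limma adjusted p = 0.00656).

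Among Ras proteins and their regulators, 9 of 25 fell and 2 rose against NP15, and 5 fell and 2 rose against P15. RASGRP3, a diacylglycerol-responsive exchange factor for Ras, fell 3.25-fold against NP15 and 3.43-fold against P15 (limma adjusted p = 0.000220 and 0.000185). RASGRP4, of the same family, rose 2.68-fold against NP15 and 2.98-fold against P15 (limma adjusted p = 4.84e-05 and 3.33e-05), and its change with the common floor was 0.47 in each comparison (adjusted p = 0.00761 and 0.00805). The pair of RASGRP genes was well above background on all 12 arrays. SPRY4, an inhibitor of receptor-to-Ras signalling, rose 2.87-fold against NP15 (limma adjusted p = 0.000130), and its change was 0.015 with the common floor (adjusted p = 0.491). RAP2A, a small GTPase related to Ras, fell 1.47-fold against P15 (limma adjusted p = 0.00392), and its change was −0.26 under normexp (adjusted p = 0.0885) and −0.11 in net signal (adjusted p = 0.453).

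Of the R-spondin and Wnt genes, 7 of 22 fell and 3 rose against NP15, and 6 fell and 1 rose against P15. Among those that fell, 3 were well above background on no P18 array, and FZD4, a Wnt receptor, was among them: its change of −1.60 against NP15 became 0.39 in net signal. CTNNB1, which encodes beta-catenin, the effector of Wnt signalling, fell 2.11-fold against NP15 (limma adjusted p = 8.09e-05) and 2.0-fold against P15 (limma adjusted p = 0.000142). CSNK1A1, a kinase that marks beta-catenin for destruction, fell 1.84-fold against NP15 (limma adjusted p = 0.000180) by the brighter of its 2 tested probes. CTNNBIP1, which binds beta-catenin and blocks its work, rose 1.81-fold against P15 (limma adjusted p = 0.000568).

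**Figure D5:**
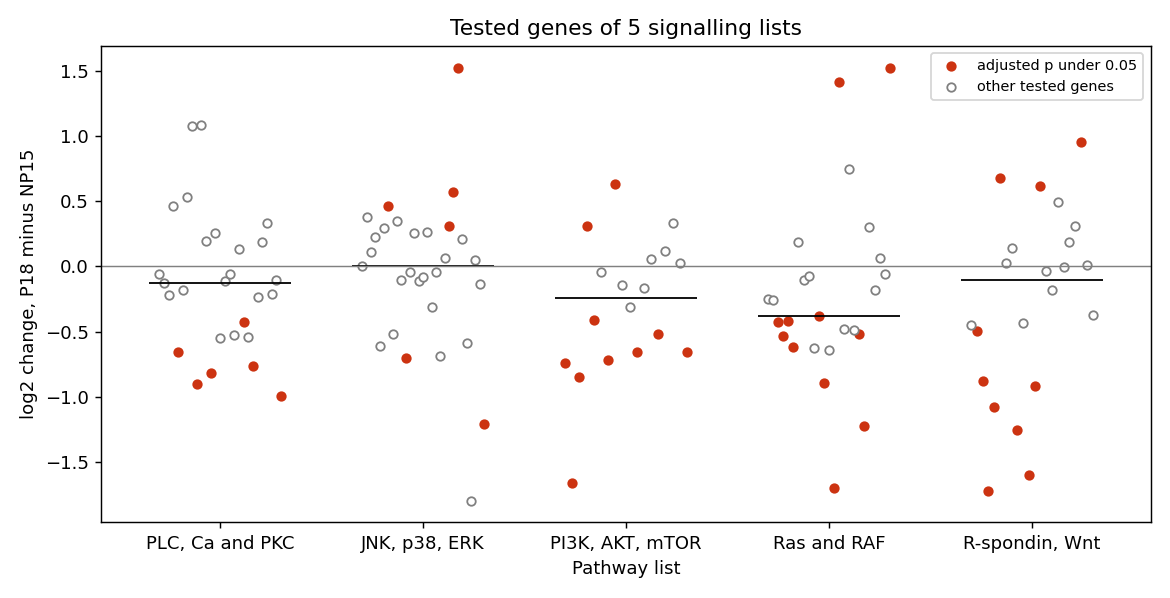
The vertical axis is the log2 change of P18 minus NP15 for each tested gene of the 5 pathway lists, placed in alphabetical order within its list; red points passed limma at an adjusted p of 0.05, open points did not, and black lines are list medians. Red points are lower more often than higher in every list but the JNK, p38 and ERK list, where 4 are higher and 2 lower.

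Cell markers were compared as well, and their part in these results was not tested. The counts that follow are for P18 against NP15 unless stated, where 18.7% of all tested probes were lower and 11.2% higher. The single myeloid and single T and natural killer markers that were higher are near that share. Summed over the 12 luteal markers, the level relative to the array's 75th percentile was 577 to 710 for NP15, 452 to 573 for P15 and 414 to 517 for P18, with 4 of 12 lower and 1 higher in P18 against NP15. The P15 sums lay below NP15 and overlapped P18, but such sums are carried by the brightest markers. In P15 against NP15, 1 of the 12 was lower and 0 higher, where 0.579% and 0.397% of all tested probes were. The median log2 change of the 12 was 0.066 there, with 5 below 0. In P18 against P15, 2 markers were higher and 2 lower. Of 12 tested endothelial markers 5 were lower and 0 higher, with sums of 31.0 to 45.8 (NP15), 31.7 to 38.5 (P15) and 26.9 to 31.8 (P18). Of 10 fibroblast, pericyte and smooth muscle markers 4 were lower and 0 higher, with sums of 91.0 to 100.4, 90.3 to 103 and 66.6 to 84.1. Of 9 myeloid markers 1 was higher, with sums of 6.0 to 10.6 (NP15), 8.25 to 22.1 (P15) and 14.3 to 38 (P18), and of 11 T and natural killer cell markers 1 was higher and 0 lower. The T and natural killer sums were 0.91 to 2.32 (NP15), 0.87 to 2.06 (P15) and 0.97 to 4.97 (P18). Of 4 B and plasma cell markers none passed against NP15 in limma, of 3 red cell and platelet markers 1 was higher, and of 4 general leukocyte markers 1 was lower. VWF and PDGFRA were the only endothelial and fibroblast markers, respectively, that were not well above background on all 12 arrays.

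Over the 12 arrays the profiles of the 5 genes, each centred on its own mean, differed from each other by a root mean square of 0.35 log2 units (PLCG1 with RASAL2) to 0.83 (PIK3R3 with RSPO3). Of 6180 other named probes, those nearest to PLCG1 were ADAMTS2 at 0.18, WRNIP1 at 0.19 and CSAD at 0.24. Of these, WRNIP1 was well above background on all 4 P18 arrays, CSAD on 2 and ADAMTS2 on 0. CBX1, TMEM30C and C1QTNF1 were nearest to MAPK9 (0.33, 0.33 and 0.35), and XYLB, RBM33 and TMEM30C to PIK3R3 (0.37, 0.38 and 0.40). RASAL2 had PLCG1, WRNIP1 and ADAMTS2 as nearest (0.35, 0.40 and 0.41), and RSPO3 had C1QTNF1, BMPR1A and CABP4 (0.48, 0.55 and 0.57). ADAMTS2, CBX1, TMEM30C, C1QTNF1, XYLB, RBM33, BMPR1A and CABP4 were well above background on no P18 array. ADAMTS2, TMEM30C and RBM33 had the same P18 mean of −8.12, the level of the arrays' surrogate values, so these likenesses rest in part on a floor that dim probes share.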

How the data were processed

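Each array is a deposited Agilent Feature Extraction file (version 9.5.1.1 per the file headers, 9.5 per the submitters' processing notes). Its intensity columns, per the file headers, are the net signal, the background-subtracted signal and the processed signal, in which dim spots carry a surrogate. The deposited value table holds log2 values that differ from log2 processed signal over the array's 75th percentile by a constant of −0.0142 to −0.0076 per array, with column medians of −3.32 to −2.99; how the authors centred it is not stated. Control spots and flagged spots (at most 9 per array) were left out. Probes well above background on at least 3 of 4 arrays of a group (12605 of 15208) were tested, each apart, with limma 3.58.1 in R 4.3.3 over all 12 arrays, Benjamini-Hochberg adjusted, threshold 0.05. The scripts were tested on simulated data. Within groups, arrays correlated at 0.962 to 0.991. Symbols were matched to a RefSeq gene table (ARS-UCD2.0): 2514 probes by accession, 2013 by gene number, 1272 by symbol, 289 by older symbol, 1009 by description, and 8111 not named. The files name no genome build, so no coordinates are given.

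The members and gene lists were chosen with earlier results of these data known. Named list genes are, per list and comparison, the up to 3 with the smallest p among those past the threshold whose groups do not overlap and with 1 group well above background on all arrays; a gene that this rule chose is not reported here; nearest profiles are the 3 named probes with the smallest root mean square difference. An at-least fold sets the brighter group's mean against, per array, the higher of the lowest signal well above background and the probe's own. The 4 animals of each group are separate cows, and the number of arrays limits the precision. Alternatives were other normalizations, normexp (offset 50), filters, array weights, a position adjustment, a replicate block, leaving out each array, and, chosen after seeing the data, net signal, a common floor, and leaving out replicate 4 of NP15 and of P15.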

Additional observations from a re-analysis of the deposited data

Results flagged for a closer look

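Among 25 genes in 3 groups each, 75 groups of 4 arrays were checked for an array far from the other 3, where chance flags about 1 in 20 groups, and 5 stood out. For PIK3R3, NP15 replicate 4 was at −6.77 with the other NP15 arrays between −5.54 and −5.34. For RASAL2, P18 replicate 4 was at −6.92 with the others between −8.28 and −8.08, none of them well above background. CAMK2D was at −1.16 in NP15 replicate 2, with the others between −0.90 and −0.87. AKT1 was at −2.10 in P18 replicate 3, with the others between −1.68 and −1.62. RASGRP4 was at −6.54 in NP15 replicate 3, with the others between −6.26 and −6.20.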

How the results depend on the processing

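The day 18 values of all 5 genes moved with the handling of background, and depth of signal limits 4 of them: MAPK9, PIK3R3, RASAL2 and RSPO3 were below the measurable range on every P18 array. Counts of genes whose P18 arrays all lay below were 2 against NP15 and 3 against P15 under normexp, 2 and 2 with net signal, 2 and 2 with the common floor, and 1 and 1 when probes had to be well above background on all 12 arrays, which leaves only PLCG1 to count; leaving out arrays gave 4 to 5 against NP15. Against P15 and NP15 in turn, the changes were as follows. Under normexp PLCG1 had −1.30 and −1.36, MAPK9 −0.76 and −0.68, PIK3R3 −0.43 and −0.38, RASAL2 −0.49 and −0.35, and RSPO3 −0.63 and −0.37. With net signal PLCG1 had −1.20 and −1.26, MAPK9 −0.44 and −0.38, PIK3R3 −0.077 and −0.12, RASAL2 −0.18 and −0.011, and RSPO3 −0.27 and 0.031, the last with its sign turned. With the common floor MAPK9 had −0.35 and −0.32, PIK3R3 −0.12 and −0.0051, RASAL2 −0.20 and −0.014, and RSPO3 −0.22 and −0.042. Quantile normalization gave MAPK9 −2.91 and −2.87 and PIK3R3 −3.14 and −3.10. Against NP15, cyclic loess gave PLCG1 −1.94 and median centring gave MAPK9 −2.15. For P15 against NP15 no member passed under any setting, and signs turned for MAPK9 with array weights (−0.014; leaving out arrays, −0.062 to 0.11), for PIK3R3 with array weights (−0.26), net signal (−0.038) and without replicate 4 of NP15 and P15 (−0.13; leaving out arrays, −0.31 to 0.20), and for RASAL2 without those 2 arrays (−0.099; leaving out arrays, −0.18 to 0.31). Over all probes, 123 changed between P15 and NP15, against 76 under normexp, 65 with the 2 groups alone, 214 with array weights, 39 with the position adjustment and 67 to 121 leaving out arrays. Replicate numbers were not taken to pair the cows: same-number correlations were −0.040 to 0.293 over all groups and 0.097 to 0.293 between NP15 and P15, where NP15 replicate 1 correlated better with P15 replicate 2 (0.185) than with replicate 1 (0.118). The replicate block gave 75. With no filter, 5506 probes changed between P18 and P15, against 3659. Pathway genes changed against NP15 numbered 28 with the common floor and 27 to 42 leaving out arrays, against 43. FZD4 (0.39 against NP15) turned sign with net signal. The cause of these shifts was not tested.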
